A study of Mus musculus with 43 samples.

Results

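The comparison set 1 poly(A) RNA-seq library, labelled siMyc day 3, against 2 control libraries of secondary mouse embryonic fibroblasts (MEF), labelled si-Scramble MEF, replicates 1 and 2. These are 3 of the 43 libraries of the study, and they were chosen by their labels. All 3 come from the Mbd3f/- + OSK 2nd cell line, which carries a floxed and a deleted allele of Mbd3, a subunit of the chromatin complex NuRD. The line also carries a doxycycline-inducible cassette of Oct4 (Pou5f1), Klf4 and Sox2 with mCherry (FUW-TetO-STEMCCA-OKS-mCherry) and the transactivator FUW-M2rtTA, and the cassette holds no Myc. Induced pluripotent cells made with these vectors had been injected into BDF2 blastocysts, and the secondary MEF are fibroblasts derived after that step. The labels do not say how many embryos were pooled or whether host cells were removed. For the siMyc library, a mix of Stealth siRNA against c-Myc, L-Myc and N-Myc was delivered with RNAiMAX on day -3 and day 0, when doxycycline was added. The cells were collected on day 3. The control libraries carry the label of a scrambled siRNA, and the labels do not say when they were collected or whether they had received doxycycline. No day 3 library with a control siRNA was analysed here. Induction, time in culture, medium and siRNA therefore change together between the groups and cannot be told apart.

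Myc proteins pair with Max, bind the DNA sequence CACGTG and are best known for raising genes of ribosome assembly, nucleotide synthesis, glycolysis and cell division. In fibroblasts, Oct4, Sox2 and Klf4 first lower genes of the fibroblast state and raise epithelial genes, while most genes of the pluripotent state come on later. Myc is a dispensable member of the reprogramming cocktail that is known for making the process faster and more productive.

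The library labelled siMyc day 3 had 13962 genes at an FPKM (fragments scaled to transcript length and library size, the authors' unit) of at least 1. The MEF libraries had 14565 and 14642. Across the 15563 genes tested, the Pearson correlation of log2(FPKM + 1) was 0.965 between the MEF libraries and 0.919 between the siMyc day 3 library and each of them. It was 0.861 with the Myc inhibitor day 3 library, which in turn stood at 0.881 and 0.877 from the MEF libraries. The depth of the libraries is unknown, and all 37 mitochondrial genes were listed at 0 in all 9 libraries of the table, so a listed 0 can be a failed estimate. Vim, a fibroblast intermediate filament gene, stood at 3581 FPKM on day 3 and at 3828 and 3657 in MEF. Thy1, a fibroblast surface marker, stood at 411 against 427 and 391.8. These 2 markers of the labelled cell type were thus present in all 3 libraries, while other fibroblast genes were far lower on day 3, as given with their group. Xist, the RNA of the inactive X chromosome, stood at 0.0755 FPKM on day 3 and at 1.85 and 1.64 in MEF.

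The siRNA targets came first, because they check the label. Myc (ENSMUSG00000022346, GRCm38 chromosome 15, 61985391 to 61990374, plus strand) stood at 29.2 FPKM in the library labelled siMyc day 3 and at 30.5 and 26.5 in the MEF libraries. The day 3 level lay between the 2 control levels, and the difference was 0.04 ± 0.13 on the log2(FPKM + 1) scale (SE; limma adjusted p = 0.831). Mycn stood at 1.87 FPKM on day 3 and at 5.11 and 4.43 in MEF, below both controls, and its fall was -1.004 ± 0.15 (adjusted p = 0.0483). The call of Mycn was lost in 5 of the 6 other settings tested, with adjusted p from 0.0527 to 0.163. Mycl stood at 3.93 against 1.65 and 1.29, above both controls, and its difference of 1.00 ± 0.16 did not pass the threshold (adjusted p = 0.053), though it did with quantile normalization (1.33, adjusted p = 0.0474). Of the 3 targets, limma thus called 1 lower, and the RNA of Myc itself was not lower than in MEF. The same siRNA mix on day 7 went with 11.0 FPKM of Myc where the scrambled siRNA on day 7 went with 16.2. Mycl stood at 3.31 and 1.03 in those 2 libraries. The same table holds day 4 libraries labelled with over-expression. Listed Myc stood at 0.510 FPKM with c-Myc alone, at 3.16 with Oct4, Sox2, Klf4 and c-Myc, and at 24.8 without c-Myc. The listed Myc level thus did not follow the Myc supplied in those libraries, which limits it as a check of the label. The reason was not tested. Protein was not measured, and the direction of every difference reported here belongs to the library labelled siMyc day 3, not to a measured loss of Myc RNA.

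Among the partners and competitors of Myc, Max, the obligate partner, stood at 58.1 FPKM against 42.7 and 42.5 and rose by 0.44 ± 0.06 (limma adjusted p = 0.0421). Mxi1, which pairs with Max and represses the same sites, stood at 3.72 against 12.7 and 16.1 and changed by -1.70 ± 0.19 (adjusted p = 0.0379). Mga, another Max partner, stood at 3.22 against 11.0 and 12.04 (-1.57 ± 0.11, adjusted p = 0.0309). Mxd4, a further repressor of this family, fell as well (-0.77 ± 0.06). Over the 9 partners tested, 1 was called higher and 3 lower, where limma called 8.64% of all genes tested higher and 14.4% lower.

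Of the 3 cassette factors, 2 were higher on day 3. Sox2 stood at 44.4 FPKM on day 3 and at 4.73 and 4.24 in MEF, a rise of 3.05 ± 0.10 (limma adjusted p = 0.0289). Pou5f1 stood at 6.74 and was listed at 0 in both MEF libraries (2.95 ± 0.11, adjusted p = 0.0295). Pou5f1 passed the filter only through the siMyc day 3 library and the day 7 libraries, where it is high. Its ± value and p-value rest on MEF levels listed at 0 and do not measure spread at the day 3 level. Klf4, which MEF already express, stood at 41.5 against 35.7 and 33.6, and its difference of 0.25 ± 0.08 did not pass (adjusted p = 0.114). Reads of the cassette and of the endogenous genes cannot be told apart in these values. Mbd3, present in a reduced dose in all of these libraries, stood at 55.7 FPKM against 67.0 and 63.7 (-0.22 ± 0.07, adjusted p = 0.11).

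**Figure D1:**
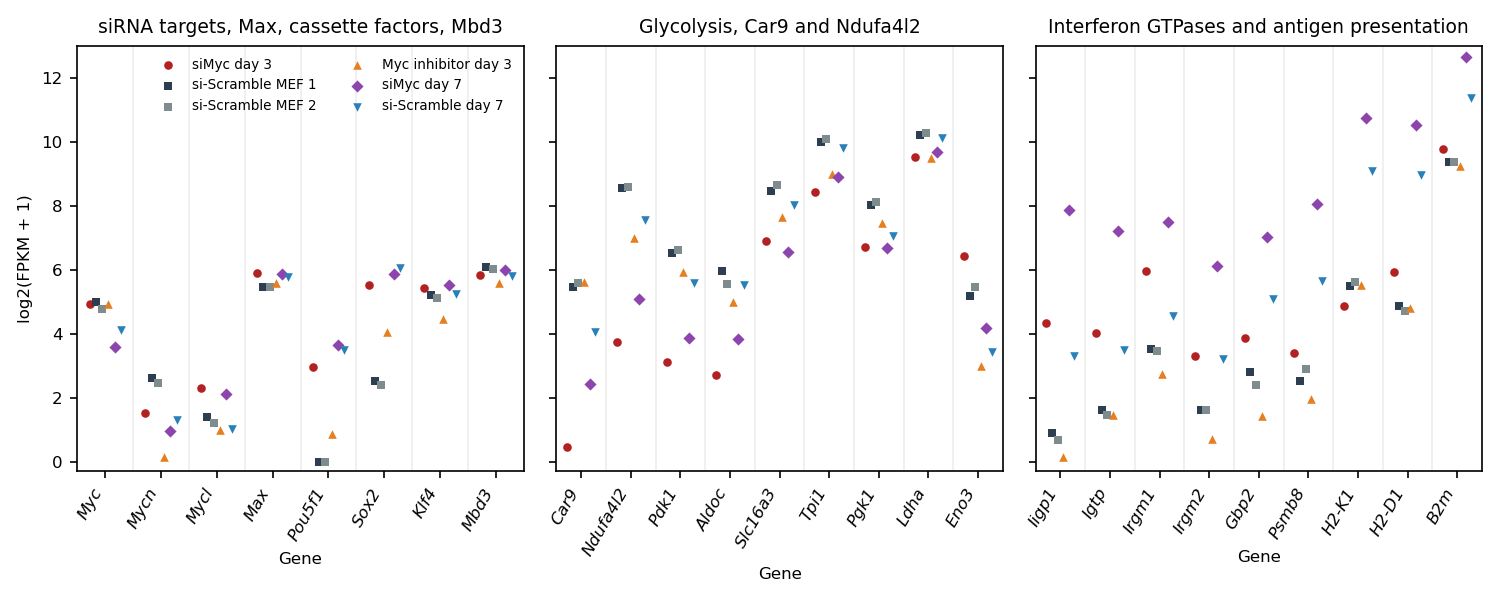
Levels in log2(FPKM + 1) (vertical axis) of the siRNA targets, Max, the cassette factors and Mbd3 (left), of Car9, Ndufa4l2 and glycolytic genes (middle), and of interferon GTPase and antigen presentation genes (right). Each point is 1 of 6 libraries of the line; the siMyc day 3 point for Myc lies between the 2 MEF points, and those for Car9, Ndufa4l2 and Pdk1 lie below all the others.

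Over all genes, limma called 3584 of the 15563 tested (23.0%): 1345 higher (8.64%) and 2239 lower (14.4%) in the library labelled siMyc day 3. A second rule asked for a distance of at least 1 on the log2 scale from both MEF libraries in the same direction. It was met by 1605 genes (10.3%), 564 higher (3.62%) and 1041 lower (6.69%). Both rules held for 1431 genes, 518 higher and 913 lower. These are 39.9% of the limma calls and 89.2% of the genes at that distance. The 2 MEF libraries lay that far apart in 337 genes (2.17%), and the day 3 library in 2096 (13.5%) and 2146 (13.8%) from each of them. The median difference over all genes tested was -0.16, so the medians of gene groups given here are to be read against that value. At an unadjusted p under 0.05, 16.1% of all genes were higher and 30.5% lower, so unadjusted counts of gene groups have that background. With quantile normalization the median was -0.01. The split of the limma calls then became 1474 higher and 1337 lower, and that of the second rule 788 and 700. Without a filter on low values limma called 1137 higher and 708 lower, and the second rule gave 655 and 1041. The balance between higher and lower calls thus depends on the setting. The limma test had 1 residual degree of freedom, from the MEF pair, and assumed that the single day 3 library varies like that pair. The labels do not say that the MEF pair came from separate cultures, so the p-values measure only the spread between these 2 samples, which may be technical. In bulk RNA, fewer cells of a type and less RNA per cell cannot be told apart.

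**Figure D2:**
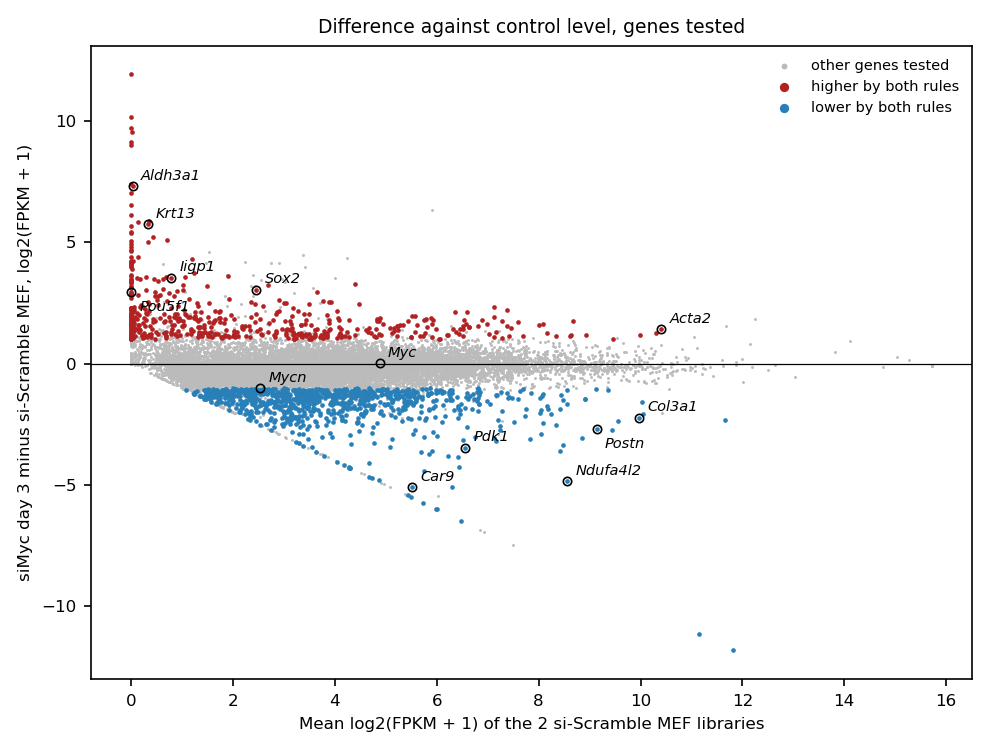
Difference in log2(FPKM + 1) between siMyc day 3 and the mean of the 2 si-Scramble MEF libraries (vertical axis) against that mean (horizontal axis), with 1 point per gene tested. Red and blue points are genes called by limma and at least 1 log2 from both MEF libraries: the 518 higher genes sit mostly at low control levels, and the 913 lower genes reach into the highly expressed matrix genes Postn and Col3a1.

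Among the largest rises of named genes (predicted, pseudogene and small RNA names left out) were genes of stratified epithelium that stood near 0 in the control fibroblasts. Aldh3a1, an aldehyde dehydrogenase abundant in the cornea, stood at 164 FPKM on day 3, against a listed 0 and 0.0363 in MEF. Its rise was 7.34 ± 0.07 on the log2(FPKM + 1) scale (limma adjusted p = 0.0181). Krt13, a keratin of mucosal epithelium (chromosome 11, 100117327 to 100121566, minus strand), stood at 66.6 against 0.164 and 0.343 (5.76 ± 0.13, adjusted p = 0.0268). The day 3 value was far above both controls for each of these genes. Krt16, a keratin of activated epidermis, stood at 39.7 against 0.241 and 0.284, and Aqp3, the water and glycerol channel of keratinocytes, at 55.7 against 0.756 and 0.523. Klk10 and Klk14, kallikrein-type proteases of skin, stood at 24.9 and 18.3 FPKM and at no more than 0.0474 in either MEF library. The other genes of the top 12 were Fetub (5.90), Nccrp1 (5.84), Mal (5.21), Urah (4.40), Nppb (4.30) and Cyp4f39 (4.20), given as differences on the log2 scale. Of these, Mal codes for a sorting protein of epithelial cells and Nppb for the B-type natriuretic peptide. None of the top 12 reached an FPKM of 1 in both MEF libraries, so each passed the filter with the help of libraries where it is high. The ± values come from MEF levels near the floor and do not measure spread at the day 3 level. The limma p-values of these rises are limited in the same way.

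The largest falls of named genes were led by 2 genes that are well-known responders to low oxygen. Over all genes tested, named or not, the differences ran from -11.8 to 11.9. Car9, the cell-surface carbonic anhydrase IX, stood at 0.356 FPKM on day 3 and at 42.8 and 46.9 in MEF, a difference of -5.08 ± 0.10 (limma adjusted p = 0.0268). Ndufa4l2, a mitochondrial protein that replaces a subunit of the respiratory chain (chromosome 10, 127514967 to 127517154, plus strand), stood at 12.2 against 375 and 381. Its level was 31.0-fold lower (-4.84 ± 0.05, adjusted p = 0.0181). Pdk1, the kinase that keeps pyruvate out of the mitochondria, stood at 7.57 against 90.5 and 95.9 (-3.46 ± 0.08). Car9 stood at 47.9 FPKM in the Myc inhibitor day 3 library, at 4.41 in siMyc day 7 and at 15.5 in si-Scramble day 7. The siMyc day 3 library was thus the lowest of the 6 libraries of the line for Car9, and it was also the lowest for Ndufa4l2 and Pdk1. Agtr2, the type 2 angiotensin receptor, stood at 0.0359 against 28.1 and 27.8 (-4.81 ± 0.09). Others of the 12 were matrix and secreted factors: Aspn (-4.27), Lum (-3.86), Nov (-3.80) and the WNT antagonist Sfrp2 (-3.73). The remaining genes were Alox5ap (-4.43), Saa3 (-3.66), Fcer1g (-3.44) and Capn6 (-3.42). Saa3, an acute-phase protein gene, stood at 3.08 FPKM on day 3, at 47.4 and 53.9 in MEF and at 4914 and 4954 in the 2 day 7 libraries.

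**Figure D3:**
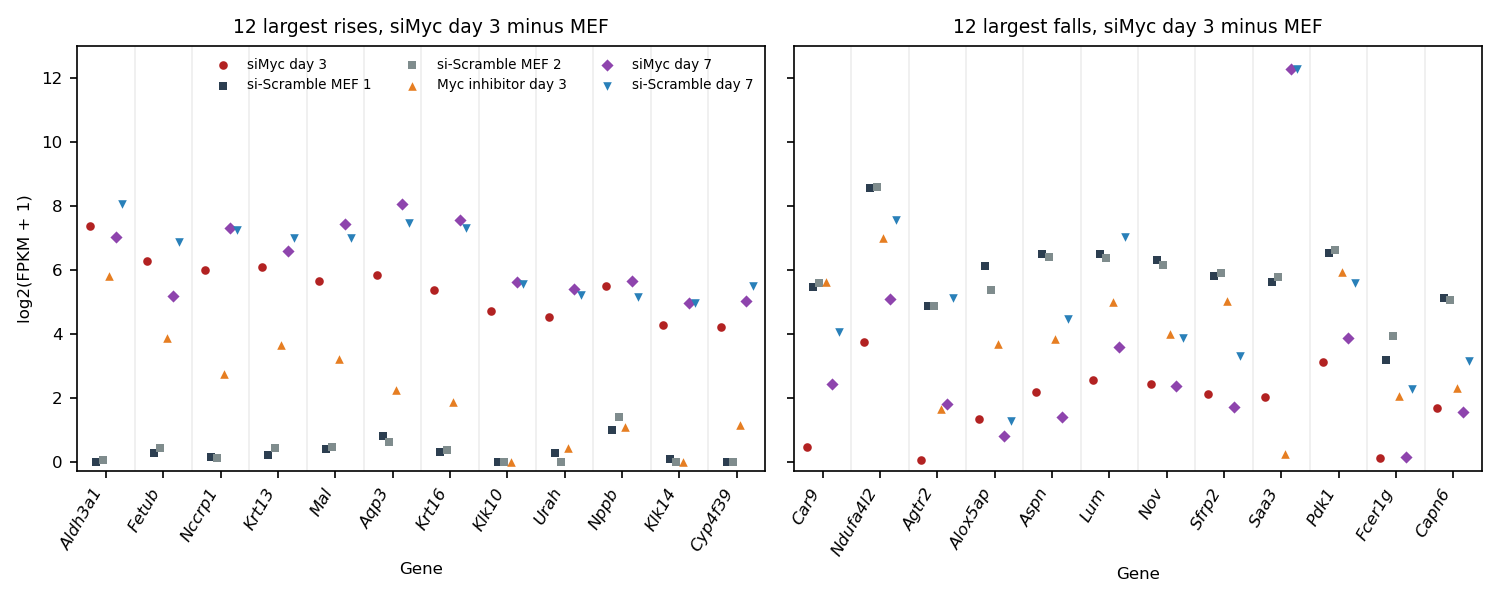
Levels in log2(FPKM + 1) (vertical axis) of the named genes with the 12 largest rises (left) and the 12 largest falls (right), with 1 point per library. For the rises the 2 MEF points lie low, at most at 1.64 FPKM (Nppb). The siMyc day 3 point lies far above them and, in all 12, above the Myc inhibitor day 3 point. For the falls the siMyc day 3 point lies below both MEF points.

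Most tested epidermal genes were higher. Of its 22 members 16 were tested, and limma called 12 higher and 1 lower; 11 and 1 lay at least 1 log2 from both MEF libraries. The list's median difference was 2.04, and over all 22 members, without the filter, it was 1.32. A member that was tested only because it is high on day 3 or day 7 had to differ, so this count describes the members that passed the filter. Krt14, the basal keratin of epidermis, stood at 60.2 FPKM against 5.13 and 5.79 (3.25 ± 0.11, limma adjusted p = 0.0289). Krt17 stood at 13.6 against 0.188 and 0.246 (3.59 ± 0.11), and Sfn, the epidermal 14-3-3 protein stratifin, at 17.95 against 1.02 and 1.01 (3.23 ± 0.09). Cdsn, a protein of cornified cell junctions, went the other way, from 7.26 and 7.19 in MEF to 0.760 (-2.22 ± 0.09). Trp63, the master transcription factor of epidermis, stood at 0.0484 on day 3 and at 0.0661 and 0.0894 in MEF, and was not tested. Krt5, the usual partner of Krt14, stood at 0.183 against 0.0254 and a listed 0 and was not tested either.

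Junction genes of epithelium were mixed. Of 22 tested, limma called 9 higher and 4 lower, with a median difference of 0.45 that was 0.075 without the filter on low values. Dsp, desmoplakin, stood at 7.49 FPKM against 0.654 and 0.777 (2.31 ± 0.11, limma adjusted p = 0.0295), and Jup, plakoglobin, at 185 against 46.9 and 45.8 (1.97 ± 0.05). Cdh1, E-cadherin, stood at 2.95 against 0.0867 and 0.0131 (1.91 ± 0.13), a low level next to 11.4 and 19.03 in the 2 day 7 libraries. Dsp and Cdh1 lay under FPKM 1 in both MEF libraries and passed the filter through libraries where they are high. Their ± values and p-values come from MEF levels near the floor. Cldn3, a tight junction claudin, fell from 7.83 and 8.88 to 1.68 (-1.80 ± 0.13), and Krt7, a keratin of simple epithelium, from 46.4 and 51.9 to 18.8 (-1.34 ± 0.12). Epcam, a marker of simple epithelium and pluripotent cells, stood at 0.221 against 0.110 and 0.211 (0.07 ± 0.15, adjusted p = 0.715).

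Of the 35 tested members of the list of matrix and identity genes, limma called 17 lower and 4 higher (median -0.55), and 12 lay at least 1 log2 below both MEF libraries. Lum, the small proteoglycan lumican, stood at 4.89 FPKM against 88.0 and 81.5 (-3.86 ± 0.08, limma adjusted p = 0.0268). Postn, periostin, stood at 86.2 against 563 and 561 (-2.69 ± 0.04), and Eln, elastin, at 6.98 against 62.0 and 63.6 (-3.00 ± 0.08). Ogn (-3.14) and Mfap4 (-3.07) fell as well, and so did the receptor gene Pdgfra, from 14.1 in each MEF library to 2.55 (-2.09 ± 0.09). The day 3 level of each of these genes lay below both controls. Other genes of the list did not pass the test: the differences were -0.06 for Vim, 0.01 for Thy1 and -0.18 for Fn1. Fbln2, fibulin 2, stood at 941 against 531 and 596 and rose by 0.74 ± 0.10.

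Among 20 collagen genes 10 were called lower and 4 higher (median -0.57). Col3a1, a fibrillar collagen, stood at 213 FPKM against 942 and 1066 (-2.23 ± 0.10, limma adjusted p = 0.0295). Col6a1 stood at 58.7 against 205 and 225 (-1.85 ± 0.09), Col6a2 at 33.6 against 173 and 193 (-2.41 ± 0.10) and Col15a1 at 4.12 against 24.5 and 30.3 (-2.46 ± 0.18). Col1a1, the main fibrillar collagen, stood at 1063 against 1359 and 1572, below both controls, and its difference of -0.46 ± 0.12 did not pass (adjusted p = 0.0919). The basement membrane collagens Col4a1 (0.78 ± 0.06) and Col4a2 (0.90 ± 0.10) were among the 4 that rose.

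Smooth muscle and TGF-beta response genes moved against the matrix genes. Of 27 tested, limma called 17 higher and 5 lower, and 13 and 2 lay at least 1 log2 from both MEF libraries; the median difference was 1.08. Acta2, smooth muscle actin (chromosome 19, 34241090 to 34255590, minus strand), stood at 3663 FPKM against 1398 and 1311 (1.44 ± 0.06, limma adjusted p = 0.0295). Myh11, smooth muscle myosin heavy chain, stood at 28.6 against 4.10 and 4.11 (2.53 ± 0.10), and Actg2, the enteric smooth muscle actin, at 713 against 143 and 134 (2.36 ± 0.06). Ankrd1, a cardiac and stretch-responsive repeat protein, stood at 120 against 24.0 and 18.8 (2.45 ± 0.20). For each of them the day 3 library was the highest of the 6 libraries of the line. The TGF-beta targets did not all go up: Tgfbi stood at 21.7 against 147 and 154 (-2.74 ± 0.06) and the thrombospondin gene Thbs2 at 25.6 against 93.1 and 92.0 (-1.81 ± 0.05). The receptor genes Tgfbr1 (-0.67 ± 0.10) and Tgfbr2 (-0.98 ± 0.06) fell, while the ligand gene Tgfb1 rose (0.97 ± 0.06).

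Mesenchymal transcription factor genes had 0 members called higher and 10 of 18 called lower by limma (median -0.56). At an unadjusted p under 0.05, 1 was higher and 12 were lower (16.1% and 30.5% of all genes). Tcf21, a factor of visceral mesenchyme, stood at 1.27 FPKM against 8.88 and 9.45 (-2.16 ± 0.12, adjusted p = 0.0303). Zeb2, a repressor of Cdh1, stood at 7.27 against 24.4 and 21.2 (-1.52 ± 0.13), Osr1 at 14.3 against 45.5 and 41.0 (-1.53 ± 0.11) and Twist1 at 54.1 against 112 and 110 (-1.02 ± 0.05). Osr2, a relative of Osr1, fell as well (-1.80 ± 0.19).

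**Figure D4:**
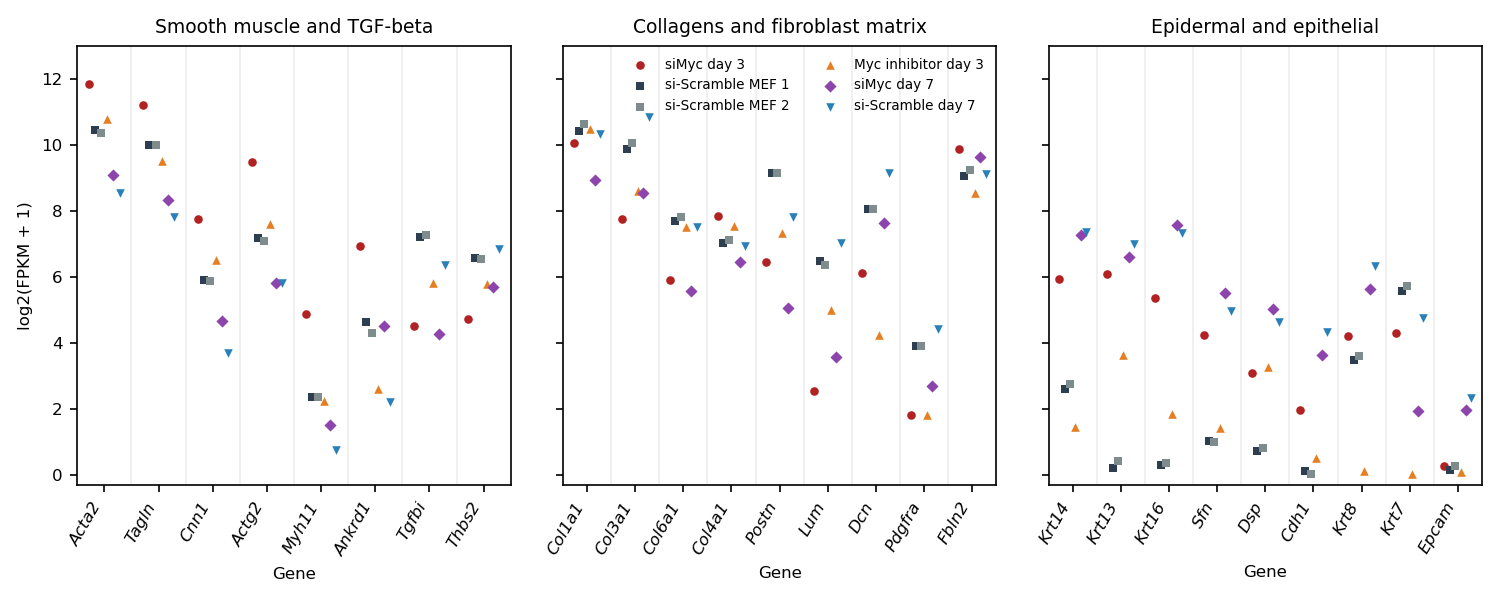
Levels in log2(FPKM + 1) (vertical axis) of smooth muscle and TGF-beta genes (left), collagens and fibroblast matrix genes (middle) and epidermal and epithelial genes (right), with 1 point per library. In siMyc day 3, Acta2, Cnn1 and Myh11 lie above both MEF points, Postn, Lum and Col3a1 below them, and Krt14, Krt13 and Krt16 between the MEF and the day 7 levels.

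Genes of ribosome assembly, which Myc is known to raise, were not lower as a group. Among the 35 nucleolar ribosome biogenesis genes limma called 11 higher and 0 lower, against 8.64% and 14.4% of all genes, and 0 lay at least 1 log2 from both MEF libraries. At an unadjusted p under 0.05, 19 were higher and 3 lower (16.1% and 30.5% of all genes). The differences ran from -0.30 to 0.95 with a median of 0.30. Rrp12, an export factor of ribosomal subunits, stood at 5.71 FPKM against 2.32 and 2.63 (0.95 ± 0.12, adjusted p = 0.0418), and Rrp9, a factor of rRNA processing, at 47.1 against 24.3 and 26.9 (0.86 ± 0.10). The abundant members were closer to the controls: Nop56 stood at 106 against 87.1 and 82.4 (0.32 ± 0.06, adjusted p = 0.0674) and Npm1 at 275 against 317 and 319 (-0.21 ± 0.04, adjusted p = 0.0626). Of 25 Myc-responsive genes of metabolism and growth, 3 were called higher and 4 lower (median 0.04). Cct3, a chaperonin subunit, rose most (1.02 ± 0.07), and Ldha, lactate dehydrogenase A, was lowest against MEF (-0.71 ± 0.04). Ran, the nuclear transport GTPase, stood at 750 against 833 and 811 (-0.13 ± 0.04, adjusted p = 0.12). Of 38 ribosomal protein genes limma called 0 higher and 5 lower (median -0.13), the latter a share near the 14.4% of all genes. Of the same genes, 0 were higher and 13 lower at an unadjusted p under 0.05 (16.1% and 30.5% of all genes).

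The sequence CACGTG, the site of Myc and Max, was looked up in the 250 bases before the gene start (RefSeq promoters, build GRCm38.p6, both strands). It was present for 2 of the 31 nucleolar genes with a promoter in that table (6.45%) and for 9.95% of the 9605 tested genes with one. A gene counted when any of its listed promoters held the sequence. Among genes higher by both rules the share was 5.88%, and among those lower it was 10.4%. A match is a description of the letters only, and bases after the gene start were not searched.

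Few cell cycle genes were called. Of 39 DNA replication genes 1 was called higher and 2 lower (median -0.09), and of 38 genes of mitosis and the spindle limma called 0 higher and 5 lower (median -0.43), shares at or under those of all genes (8.64% higher, 14.4% lower). With quantile normalization 2 mitotic genes were lower. Of the mitotic genes 0 were higher and 22 lower at an unadjusted p under 0.05 (16.1% and 30.5% of all genes). The median of the replication genes turned to 0.070 with quantile normalization. Nusap1, a spindle protein, stood at 7.41 FPKM against 18.9 and 21.2 (-1.32 ± 0.12, limma adjusted p = 0.0344), and Bub1b, a checkpoint kinase, at 7.83 against 20.6 and 16.7 (-1.15 ± 0.18, adjusted p = 0.0496). Ccne2, cyclin E2, stood at 5.64 against 15.8 and 17.7 (-1.42 ± 0.12). Among 25 CDK inhibitor and p53 target genes 6 were higher and 6 lower. At least 1 log2 from both MEF libraries lay 2 higher and 4 lower, so the list had no common direction. Pmaip1, the p53 target Noxa, rose by 1.48 and Cdkn1a, the inhibitor p21, by 0.44 ± 0.04. In contrast, Bbc3, also a p53 target, fell from 24.0 and 28.3 to 10.7 (-1.21 ± 0.14). Cdkn1b, the inhibitor p27, fell from 26.1 and 32.2 to 11.1 (-1.31 ± 0.17).

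Glycolysis and lactate genes, a list that holds Pdk1, were mostly lower. Of 24 tested, limma called 15 lower and 1 higher, and 9 lay at least 1 log2 below both MEF libraries and 0 above; the median difference was -0.82. The summed FPKM of the list was 4342 on day 3 and 7197 and 7565 in MEF. Aldoc, a brain-type aldolase, stood at 5.55 FPKM against 60.6 and 46.0 (-3.04 ± 0.22, limma adjusted p = 0.0312), and Slc16a3, the lactate exporter, at 118 against 353 and 396 (-1.66 ± 0.10). Tpi1, triose-phosphate isomerase, stood at 344 against 1016 and 1071 (-1.60 ± 0.05), and Pgk1, phosphoglycerate kinase, at 104 against 257 and 274 (-1.34 ± 0.06). The glucose transporter gene Slc2a3 stood at 8.81 against 26.5 and 35.4 (-1.69 ± 0.23). Pfkfb3, which makes the activator of phosphofructokinase, stood at 6.79 against 17.4 and 37.6. It lay below both controls, but these differed between themselves, and its difference of -1.78 ± 0.58 did not pass (adjusted p = 0.128). Eno3, muscle enolase, was the member called higher, with 84.2 against 35.1 and 42.9 (1.10 ± 0.17, adjusted p = 0.0495).

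The sequence ACGTG, the core of the element bound by the hypoxia-inducible factors, was present on either strand in the 250 bases before the start of 11 of the 23 glycolysis genes with a promoter in the RefSeq table (47.8%). Of all tested genes with one, 25.0% held it, and of those lower by both rules 24.5%. Each CACGTG also holds this core. The promoter of Car9, the largest of the named falls, is shown. Those of list members that fell by both rules and hold the core are shown beside it. Slc16a3 and Pgk1 were the only such members found, while 9 members of the list lay at least 1 log2 below both MEF libraries. A link between the core and the falls was not tested. The sequences are the 250 bases before the gene start, 5′ to 3′, all on the plus strand of GRCm38.p6, with the core or its reverse complement in capitals. Car9 is chr4:43506776-43507025, Slc16a3 is chr11:120948817-120949066 and Pgk1 is chrX:106186850-106187099.
Car9: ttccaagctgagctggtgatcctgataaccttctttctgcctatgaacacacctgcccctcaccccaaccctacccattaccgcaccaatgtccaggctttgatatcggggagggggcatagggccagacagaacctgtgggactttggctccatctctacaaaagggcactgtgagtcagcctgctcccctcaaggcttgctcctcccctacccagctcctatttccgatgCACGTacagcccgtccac
Slc16a3: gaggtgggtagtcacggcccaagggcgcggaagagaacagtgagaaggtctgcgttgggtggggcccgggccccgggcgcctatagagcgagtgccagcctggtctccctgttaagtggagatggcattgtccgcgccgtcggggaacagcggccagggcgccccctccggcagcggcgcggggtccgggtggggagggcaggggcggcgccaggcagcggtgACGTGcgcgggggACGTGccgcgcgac
Pgk1: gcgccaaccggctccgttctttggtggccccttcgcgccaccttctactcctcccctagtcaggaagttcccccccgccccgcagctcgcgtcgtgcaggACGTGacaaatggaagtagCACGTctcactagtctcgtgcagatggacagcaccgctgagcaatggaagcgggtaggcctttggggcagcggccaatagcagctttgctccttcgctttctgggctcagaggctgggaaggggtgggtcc
In Car9 the 1 match begins 18 bases before the gene start. In Slc16a3 the first of 2 matches begins 27 bases before it, and in Pgk1 the first of 2 begins 150 bases before it. The promoters of Pdk1 and Aldoc listed there, whose genes fell further than Slc16a3 and Pgk1, hold no match in this window.

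Oxidative phosphorylation genes moved less and the other way. Of 32 nuclear-encoded members 8 were called higher and 0 lower by limma (median 0.26), and 0 lay at least 1 log2 from both controls. At an unadjusted p under 0.05, 18 were higher and 1 was lower (16.1% and 30.5% of all genes). Atp5b, the catalytic subunit of ATP synthase, stood at 1768 FPKM against 1275 and 1206 (0.51 ± 0.05, adjusted p = 0.0371), and Uqcrq, a subunit of complex III, at 897 against 695 and 697 (0.37 ± 0.04). Cholesterol and lipid synthesis genes went down: 13 of 23 were called lower and 1 higher (median -0.80). Scd2, a fatty acid desaturase, stood at 62.3 against 248 and 270 (-2.04 ± 0.08), Hmgcs1, the HMG-CoA synthase, at 28.4 against 79.5 and 72.7 (-1.39 ± 0.09), and Lss, lanosterol synthase, at 11.6 against 30.5 and 36.1 (-1.44 ± 0.14). Insig1, which restrains this pathway, fell as well (-1.41 ± 0.17). Fasn, fatty acid synthase, was the member that rose, with 62.2 against 33.7 and 33.4 (0.87 ± 0.06).

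Of the 20 tested members of a list that joins interferon-inducible GTPases with antigen presentation genes, limma called 9 higher and 2 lower (median 0.67). Iigp1 stood at 19.2 FPKM on day 3 and at 0.848 and 0.606 in MEF (3.55 ± 0.14, limma adjusted p = 0.0295). Both MEF levels of Iigp1 lay under the FPKM of 1 of the filter, so it passed through libraries where it is high. Its ± value and p-value come from MEF levels near the floor. Igtp stood at 15.3 against 2.04 and 1.73 (2.51 ± 0.12), Irgm1 at 60.4 against 10.5 and 10.0 (2.44 ± 0.08) and Irgm2 at 8.92 against 2.08 and 2.04 (1.70 ± 0.09). All 4 code for immunity-related GTPases, which attack the vacuoles of intracellular parasites, and all 4 stood above both controls. The class I genes H2-D1 (1.14 ± 0.10) and H2-K1 (-0.68 ± 0.08) differed in direction. In the day 7 libraries Iigp1 stood at 233 with siMyc and at 8.89 with the scrambled siRNA. Of the 20 genes, 16 lay at least 1 log2 higher with siMyc on day 7 and 0 lower, where 3.10% and 4.22% of all genes did; each day 7 group is 1 library and has no test. Of 21 other interferon-stimulated genes, limma called 3 higher and 0 lower on day 3 (median 0.13), and 5 were higher and 3 lower at an unadjusted p under 0.05 (16.1% and 30.5% of all genes).

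Readouts of WNT and LIF signalling and genes of the IGF axis had more members called lower than higher. So did all genes tested, with 8.64% called higher and 14.4% called lower by limma, and the limma counts given here have that background. Of 13 WNT readouts 0 were called higher and 6 lower by limma, and at an unadjusted p under 0.05, 0 were higher and 9 lower (16.1% and 30.5% of all genes). The median of the list was -1.17, and -0.30 without the filter on low values. Sfrp1, a secreted WNT antagonist, stood at 8.20 FPKM against 43.9 and 40.9 (-2.24 ± 0.09), and Nkd1, a feedback inhibitor, at 1.49 against 7.66 and 8.05 (-1.83 ± 0.11). Axin2, the most used readout, stood at 1.34 against 4.73 and 9.59, and its difference of -1.73 ± 0.48 did not pass (adjusted p = 0.103). Of 11 LIF and Stat3 readouts 0 were higher and 5 lower (median -0.94), with 0 higher and 8 lower at an unadjusted p under 0.05 (16.1% and 30.5% of all genes). Il6st, the shared receptor subunit gp130, stood at 28.7 against 175 and 123 (-2.31 ± 0.28, adjusted p = 0.0403) and Lifr, its partner, at 1.24 against 4.31 and 4.06 (-1.21 ± 0.12). In the IGF axis, with 6 of 13 lower and 1 higher, Igfbp5 stood at 12.2 against 106 and 107 (-3.03 ± 0.06) and Igf1 at 12.1 against 42.1 and 39.3 (-1.67 ± 0.09). Igfbp7 was the member that rose, to 1394 from 412 and 404 (1.77 ± 0.04). Among 18 imprinted genes, 11 were called lower and 1 higher (median -0.73). H19, an imprinted long RNA of fetal tissue, stood at 103 against 693 and 687 (-2.74 ± 0.04), Dlk1, a Notch-related membrane protein, at 146 against 769 and 739 (-2.36 ± 0.06) and Peg3, a zinc finger protein, at 6.11 against 24.7 and 25.3 (-1.87 ± 0.08).

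Few genes of the pluripotent state reached the level needed for a test. Of the 21 early genes of reprogramming toward pluripotency 8 were tested, and limma called 3 higher and 0 lower (4 and 0 at an unadjusted p under 0.05, where 16.1% and 30.5% of all genes passed). L1td1 and Fgf4 passed the filter through the day 3 and day 7 libraries, where they are high, and had to differ from MEF. The list's median was 0.62, and 0.031 without the filter. L1td1, an RNA-binding protein gene, stood at 14.2 FPKM against a listed 0 and 0.0236 (3.91 ± 0.10, limma adjusted p = 0.0268), Fgf4, a growth factor controlled by Oct4 and Sox2, at 6.39 against a listed 0 in both (2.89 ± 0.12), and Upp1, a uridine phosphorylase, at 6.87 against 1.08 and 0.689 (2.07 ± 0.19). Of 10 tested core and naive genes, limma called 1 higher and 1 lower, and 9 had a negative difference (median -0.43, and -0.16 without the filter). At an unadjusted p under 0.05, 1 was higher and 5 lower (16.1% and 30.5% of all genes). The only member of that list with a positive difference was Zfp296, a zinc finger gene, which stood at 5.46 against 0.686 and 0.667 (1.95 ± 0.11). Zfp296 too lay under FPKM 1 in both MEF libraries and passed the filter through libraries where it is high. Nanog, a core factor, stood at 0.350 against 0.420 and 0.262 and was not tested. Of 14 surface markers of reprogramming 7 were called higher and 1 lower (median 0.72, and 0.28 without the filter). Ly6a, the antigen Sca-1, stood at 354 against 79.9 and 81.1 (2.12 ± 0.04), Nt5e, CD73, at 7.68 against 1.27 and 1.60 (1.84 ± 0.14), and Cd24a at 109 against 37.1 and 35.3 (1.57 ± 0.06). Thy1, the antigen that fibroblasts lose during reprogramming, did not pass (0.01 ± 0.08, adjusted p = 0.953).

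Among the lists of markers of other cell types, that of macrophage and blood cells had the most members called. Of 13 macrophage and blood markers tested 9 were called lower by limma and 0 higher; 10 lay at least 1 log2 below both MEF libraries. At an unadjusted p under 0.05, 0 were higher and 12 lower (16.1% and 30.5% of all genes). The summed FPKM of the 16 listed markers was 28.2 on day 3 and 101 and 120 in MEF. Fcer1g, an immune receptor subunit, stood at 0.0790 against 8.00 and 14.2 (-3.44 ± 0.42, adjusted p = 0.0409), and the complement genes C1qa, C1qb and C1qc at 1.02, 1.92 and 0.703 against 7.51 to 15.8 in MEF. Aif1 was listed at 0 on day 3 and stood at 0.394 and 0.519 in MEF. Alox5ap and Fcer1g, named among the falls, are genes of such cells, and the part of a changed share of them in those falls was not tested. Of 9 neural and Schwann markers 3 were called higher and 3 lower. Gfap, a glial filament gene, stood at 0.423 against 6.86 and 5.40 (-2.32 ± 0.20), while the neurofilament gene Nefl stood at 23.9 against 1.19 and 0.956 (3.59 ± 0.13). Of 4 endothelial markers limma called 1 higher and 0 lower, and of 4 skeletal muscle markers 0 and 1. Cartilage and bone markers had 1 of 8 called higher and 1 lower, and adipocyte markers 0 of 4 higher and 2 lower. Over all genes tested 8.64% were called higher and 14.4% lower. Of 10 tested signs of RNA quality, limma called 2 higher and 2 lower, with differences from -1.35 to 1.20. The highest was that of Hist1h2bc, a histone gene, which stood at 168 against 71.8 and 73.5 (1.20 ± 0.05).

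**Figure D5:**
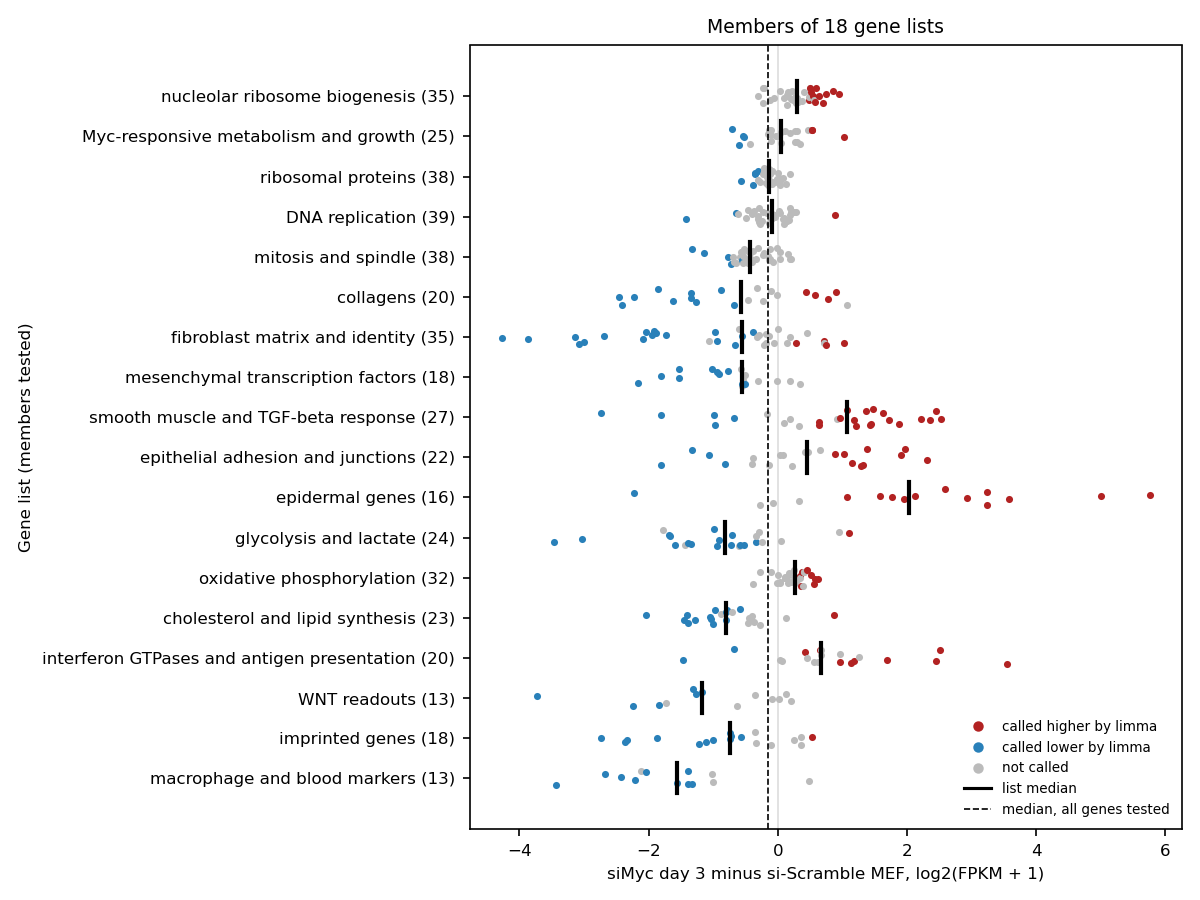
Difference in log2(FPKM + 1) between siMyc day 3 and the mean of the 2 si-Scramble MEF libraries (horizontal axis) for the tested members of 18 gene lists (vertical axis, number tested in brackets); points are spread vertically only for legibility. The dashed line is the median of all genes tested (-0.16): the medians of epidermal genes (2.04, and 1.32 without the filter on low values) and of smooth muscle and TGF-beta genes (1.08) lie to its right, those of glycolysis (-0.82), WNT readouts (-1.17, and -0.30 without the filter) and macrophage markers (-1.55) to its left.

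The library labelled siMyc day 3 was next compared with the Myc inhibitor day 3 library of the same line, the only other library of that day in the table. The labels name neither the compound nor its dose, and each group is 1 library. Against this library limma called 7144 genes (45.9%), 3439 higher (22.1%) and 3705 lower (23.8%) with siMyc, more than against MEF, and 4305 genes (27.7%) lay at least 2-fold apart. The inhibitor library itself lay at least 2-fold from the MEF libraries in 3036 (19.5%) and 3043 (19.6%) genes, beside 2096 and 2146 for the siMyc day 3 library. S100a4, a calcium-binding protein of motile fibroblasts, stood at 1432 FPKM with siMyc and at 16.1 with the inhibitor (6.39 ± 0.05, limma adjusted p = 0.0137). The MEF libraries had 693 and 713. Upk1b, a uroplakin, stood at 94.2 with siMyc and 0.493 with the inhibitor, where MEF had 85.9 and 91.6. Upk3b, a mesothelial and urothelial gene, stood at 62.8 and 0.194, where MEF had 91.4 and 96.6, and Msln, mesothelin, at 108 and 1.58, where MEF had 27.0 and 30.5. Aqp5, a water channel of glands and lung, stood at 85.7 and 0.405, where MEF had 13.4 and 14.3. Des, desmin, stood at 214 and 2.68, where MEF had 78.0 and 78.8. For Upk1b and Upk3b the distance thus came with low values in the inhibitor library, and the siMyc day 3 level was above both MEF levels for Upk1b and below both for Upk3b.

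Lower with siMyc than with the inhibitor were Abi3bp, a matrix protein (0.115 against 97.0 FPKM), Cdsn (0.760 against 127), Car9 (0.356 against 47.9), Adamtsl3 (1.36 against 59.9) and the neuropeptide genes Sst (a listed 0 against 24.6) and Npy (0.309 against 31.6). The limma differences of these genes ran from -6.46 to -4.64. For Abi3bp the MEF libraries had 5.11 and 5.35, so the siMyc library was below and the inhibitor library above them. Oxidative phosphorylation genes had 29 of 32 members called higher with siMyc and 0 lower (median 0.92); at an unadjusted p under 0.05, 30 were higher and 0 lower (27.0% and 30.8% of all genes). DNA replication genes had 23 of 39 higher and 1 lower (median 0.88). Glycolysis genes had 13 of 24 lower and 3 higher, and collagens 11 of 20 lower and 2 higher. The comparisons with MEF of the 2 day 3 libraries share their controls: the median over the nucleolar genes was 0.30 for siMyc and -0.13 for the inhibitor, that over smooth muscle and TGF-beta genes was 1.08 and 0.39, and that over epidermal genes was 2.04 and 0.02.

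The genes called against MEF were also looked up in the day 7 pair of siMyc and si-Scramble libraries, which shares no library with the day 3 comparison. Of the 518 genes higher by both rules on day 3, 323 (62.4%) were above 0 in siMyc minus si-Scramble on day 7, where 51.8% of all genes were. Of the 913 lower genes 720 (78.9%) were below 0, where 47.6% of all genes were. At a distance of at least 1 log2 these were 109 (21.0%) and 214 (23.4%), beside 3.10% and 4.22% of all genes. Across genes the 2 differences had a Pearson r of 0.21 and a Spearman rho of 0.33, a description over 15563 genes that are not independent. Col3a1 stood at 369 FPKM with siMyc and at 1834 with the scrambled siRNA on day 7, Lum at 10.8 and 128, and Ndufa4l2 at 33.0 and 186. Of 20 collagens 12 lay at least 1 log2 lower with siMyc on day 7 and 1 higher, and of 24 glycolysis genes 5 and 0. Of 35 nucleolar genes 0 did so in either direction. In contrast, the epidermal genes, raised on day 3 against MEF, had a median of -0.05 between the day 7 libraries, with 1 of 16 members at that distance in each direction. Krt14 stood at 152 with siMyc and 161 with the scrambled siRNA.

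A further view came from the Mbd3f/- system that carries Myc in its inducible cassette (Oct4, Klf4, Sox2 and Myc), labelled with no siRNA, on day 3 and as MEF, 1 library each, in a table normalized on its own. There 20.5% of the genes lay at least 1 log2 above MEF on day 3 and 21.2% below. That distance is from 1 MEF library, whereas the siMyc counts set beside it ask for the distance from both MEF libraries. By the siMyc rule 3.62% of all genes were higher and 6.69% lower, so the counts are not like for like. Nucleolar genes had 35 of 35 members at least 1 log2 higher (median 2.97), beside 0 of 35 in the siMyc day 3 comparison (median 0.30). Rrp9 stood at 186 FPKM on day 3 and 8.75 in MEF of that system, and Npm1 at 1069 and 172. Smooth muscle and TGF-beta genes had 25 of 27 members lower and 0 higher (median -5.02), beside 2 lower and 13 higher with siMyc. Acta2 stood at 25.5 against 2353 in its MEF. Collagens were lower in 20 of 20 (median -4.99), beside 8 of 20 with siMyc. Interferon GTPase and antigen presentation genes were lower in 16 of 20 and higher in 1, and Iigp1 stood at 0.0229 against 1.84. Glycolysis genes had 7 higher and 6 lower, beside 0 and 9. Car9 (0.410 against 29.6) and Ndufa4l2 (18.9 against 203) were lower on day 3 in that system too, whereas Pdk1 stood at 42.5 against 33.4. Epidermal genes had 11 of 16 higher and 0 lower, beside 11 and 1 with siMyc. Of the 518 genes higher by both rules with siMyc, 281 (54.2%) were above 0 there (49.9% of all genes), and 100 (19.3%) lay at least 1 log2 lower. Of the 913 lower genes, 746 (81.7%) were below 0 (46.5% of all genes). The systems differ in cassette, siRNA, medium and table, so these values stand side by side without a test of the difference.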

How the data were processed

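The authors deposited FPKM per gene, made with CASAVA 1.8.2, TopHat2 2.0.10 and Cufflinks 2.2.1 on mm10, per the submitters' processing notes. Neither the labels nor the file headers name an annotation release or say whether strand was used in counting. The kit does not mark strand, so overlapping and antisense genes and near-identical paralogs are uncertain. Depth is unknown.

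From these values, 22 repeated identifiers were summed, and 15563 genes reaching FPKM 1 in 2 or more of 6 libraries of the line were tested. limma 3.58.1 (R 4.3.3) was run on log2(FPKM + 1) with 1 mean per group, trend and robust moderation (median prior degrees of freedom 1.59) and Benjamini-Hochberg adjustment at 0.05. Differences are on that scale, which understates the change of low genes. The script was tested on simulated data.

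Named genes are the 12 largest rises and falls passing both rules whose higher side reaches FPKM 5, 6 in each direction against the inhibitor, the targets, cassette factors and Mbd3, and up to 4 genes per list. Predicted, pseudogene and small RNA names were left out, by a pattern widened after the names were seen. Other list members named in the text, such as Col4a1, Cdkn1a and Tgfbr1, were chosen after their values were seen. The members and the 49 lists (990 symbols, of which 17 were not matched) were chosen with earlier results of these data known. Coordinates are GRCm38 (98.7% of tested genes matched).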

Additional observations from a re-analysis of the deposited data

How the results depend on the processing

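The number of genes that limma called against MEF was 1845 without a filter on low values (1137 higher, 708 lower, 780 of them shared with the reported calls). It was 1569 when 1 library had to reach FPKM 5 (1524 shared) and 2162 without trend and robust moderation (2071 shared). With a pseudocount of 0.1, 2616 genes lay at the 2-fold distance from both MEF libraries, 815 higher and 1801 lower. Without a filter, 4711 genes were called against the inhibitor. Leaving out 1 MEF library gave 2096 to 2146 genes at that distance; limma then has no residual degree of freedom and gives no test. Of the 164 named genes, the limma call was lost for 95 without a filter, 33 with the FPKM minimum of 5, 25 without trend and robust moderation, 7 with quantile normalization and 1 with the smaller pseudocount. The median of the siRNA targets turned to -0.48 with the FPKM minimum of 5. Mycl was then not tested, and the differences of the 2 targets left, Myc (0.038) and Mycn (-1.004), did not change. That median ran from -0.061 to 0.14 when 1 MEF library was left out. The median of cartilage and bone markers turned to 0.019 with the FPKM minimum of 5, with 7 members tested instead of 8. With quantile normalization the DNA replication median turned to 0.070, Hdac2 to -0.014 and Rpl8 to -0.022. The Hox median ran from -0.0087 to 0.13 when 1 MEF library was left out. The cause of the other changes was not tested. No paired analysis was possible because the compared groups share fewer than 2 replicate numbers.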

Other observations

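Further gene groups were compared between the library labelled siMyc day 3 and MEF, beside 8.64% of all genes called higher and 14.4% lower. Of 30 chemokine and inflammatory genes limma called 8 higher and 5 lower. Ptgs2, the inducible cyclooxygenase, stood at 87.5 FPKM on day 3 and at 13.1 and 15.3 in MEF (2.55 ± 0.13, limma adjusted p = 0.0295), and Il6, a cytokine, at 7.29 against 1.32 and 1.00 (1.94 ± 0.15). Il33, an alarm cytokine, went from 7.89 and 8.04 to 1.04 (-2.13 ± 0.10). Of 14 readouts of MEK-ERK feedback 4 were higher and 1 lower, with Phlda1 at 50.6 against 13.9 and 13.6 (1.81 ± 0.07). Of 16 immediate early genes 2 were higher and 2 lower, shares near those of all genes. Dusp1, a phosphatase of this response, stood at 74.2 against 13.5 and 17.9 (2.18 ± 0.21).

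Of 29 Polycomb and BAF genes, which code for chromatin complexes, limma called 0 higher and 8 lower (median -0.41); at an unadjusted p under 0.05, 1 was higher and 18 lower (16.1% and 30.5% of all genes). Cbx6, a Polycomb subunit, stood at 14.4 FPKM against 45.8 and 56.1 (-1.74 ± 0.16, limma adjusted p = 0.0351), and Jarid2, a partner of PRC2, at 2.12 against 7.45 and 7.44 (-1.44 ± 0.09). Of 19 lysosome and autophagy genes 7 were higher and 2 lower, Ctsd, a lysosomal protease, by 0.93 and Ctss, a protease of immune cells, by -1.85. Of 29 Hox genes, which mark body position, 3 were higher and 7 lower, and with quantile normalization 4 and 1, so the balance of the list turns with the scaling. Hoxc8 (0.90), Hoxc9 (0.84) and Hoxb7 (0.57) rose, and Hoxa13 (-1.40), Hoxd13 (-1.17) and Hoxb3 (-1.25) were among those that fell.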
